A study of Homo sapiens with 18 samples.

Results

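H3K27ac and CTCF peaks were described at the loci of 10 imprinted genes: H19, IGF2, KCNQ1OT1, MEG3, DLK1, PEG3, MEST, SNRPN, PLAGL1 and GNAS. A locus was the gene body in GENCODE release 44 (hg38) plus 10 kb on either side, and a peak belonged to it when they shared at least 1 bp. The 10 loci were taken from 37501 protein-coding and lncRNA gene loci on chromosomes 1 to 22. The stretch between the H19 and IGF2 loci was described as well. The data were ChIP-seq peak lists from HEK293T, an established human cell line that was derived from embryonic kidney. Cells were left untreated (CTRL) or cultured for 1 day in 1 mM valproic acid (VPA), which inhibits class I histone deacetylases, and each antibody had 3 CTRL and 3 VPA libraries. All libraries came from this 1 cell line, and the labels do not say whether replicates were separate cultures, so p-values measure the spread between these libraries. The question was how acetylation and CTCF binding at these loci compared between treated and untreated cells.

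Imprinted genes are expressed mainly from the maternal or the paternal copy. The choice is set by DNA methylation of imprinting control regions, which differs between the copies since the germ cells. H3K27ac, acetylated lysine 27 of histone H3, marks active promoters and enhancers. CTCF is a zinc finger protein that holds the ends of chromatin loops and insulates enhancers from promoters. At H19 and IGF2, CTCF binds the unmethylated maternal control region upstream of H19 and keeps downstream enhancers from IGF2, while the paternal control region is methylated and does not bind it. Peak lists hold no allele information, so the parental copies cannot be told apart in these values.

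Peaks of the 6 libraries of an antibody were merged into regions wherever they shared 1 bp. The 10 loci held 17 of 55382 H3K27ac regions and 37 of 69985 CTCF regions. A further 2 H3K27ac and 3 CTCF regions lay between H19 and IGF2. Regions are numbered from the lowest coordinate within each locus. Peak strength is given in 2 ways. Fold enrichment is the summit over its local background, as deposited. The summit pileup is the number of fragments over the summit, recovered from the fold and the p-value, and the lowest pileup called in any library was 11 or 12 fragments. The 12 libraries had similar background coverage, 3.51 to 3.95 fragments, and read totals were unknown. For H3K27ac, the CTRL lists held 26299 to 29799 peaks and the VPA lists 38441 to 40992, so every VPA list was longer. The CTCF lists overlapped in length, with 39818 to 58782 peaks for CTRL and 36469 to 55325 for VPA. Peak counts at the loci were not adjusted for list length, except where all lists were cut to the shortest. Promoters of all 5 kidney-line markers checked (PAX2, LHX1, VIM, CDH2, LIN28B) carried H3K27ac in all 6 libraries.

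The replicate 1 libraries stood apart from the others in CTCF strength. At the 27794 CTCF regions found in all 6 libraries, the log2 pileup of replicate 1 relative to replicates 2 and 3 followed the GC content of the region (Spearman's rho = 0.81 across regions, which share the same libraries and are not replicates). In 7636 of them (27.5%) this log2 difference was under -2, and their median GC content was 45.1% compared with 52.2% for all. For H3K27ac the same rho was 0.60, and no region was under -2. Results are therefore also given without both replicate 1 libraries, an alternative chosen after the data were seen. The part of GC content in the treatment comparison was not tested.

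The sequences under the H19 and IGF2 peaks are shown first, because the CTCF sites upstream of H19 are the best known binding sites of an imprinted locus. In hg38, H19 CTCF 1 (chr11:1998061-2001228) and H19 CTCF 2 (chr11:2001801-2003445) lay inside the annotated H19 gene, which runs from 1995166 to 2004552 on the minus strand in GENCODE 44 and includes long isoforms. Both strands were searched for the 14-base form of the repeats upstream of H19, which is free at positions 6 and 9, with up to 1 mismatch at its 12 fixed positions. Together the regions held 7 matches, all on the minus strand, of which 5 were exact and those at 1999045 and 2000374 had 1 mismatch. Neighbouring matches were 401 to 406 bp apart, except for gaps of 923 and 1433 bp. The matches are written 5′ to 3′ on their own strand, with the 14 matched bases in capitals and 8 reference bases on each side.
H19 CTCF 1, chr11:1999045-1999058: ggaaatggCCGAGAGGCGGCAGtggtgact
H19 CTCF 1, chr11:1999968-1999981: ggaagtggCCGCGCGGCGGCAGtgcaggct
H19 CTCF 1, chr11:2000374-2000387: ggaggtggCTGCGCGGCGGCAGtgcaggct
H19 CTCF 1, chr11:2000780-2000793: ggaagtggCCGCGTGGCGGCAGtgcaggct
H19 CTCF 2, chr11:2002213-2002226: aaaagtggCCGCGCGGCGGCAGtgcaggct
H19 CTCF 2, chr11:2002614-2002627: ggaagtggCCGCGCGGCGGCAGtgcaggct
H19 CTCF 2, chr11:2003019-2003032: agaagtggCCGCGCGGCGGCAGtgcaggct

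The summit of H19 CTCF 1 lay 37 bp from the match at 1999968, and that of H19 CTCF 2 lay 2 bp from the match at 2003019. The pattern was taken from this locus, so its presence here is a description. Among all CTCF regions, 23 of 69985 (0.0329%) held an exact copy within 100 bp of the summit. At the 10 loci there were 3: both H19 regions and PLAGL1 CTCF 9.

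A general CTCF core consensus of 14 bases, searched on both strands with up to 2 mismatches, lay within 100 bp of the summit in 22 of 37 regions at the 10 loci (59.5%) and in 56.3% of all CTCF regions. Windows of the same length 2 kb away held it for 5 of the 37 regions (13.5%) and for 5.37% of all regions. The other sites that the results turn on are shown in the same way. PLAGL1 CTCF 9 holds the H19 form, MEG3 CTCF 2 and PLAGL1 CTCF 7 match the core consensus without a mismatch, the site between H19 and IGF2 and that of GNAS CTCF 7 have 1, and that of KCNQ1OT1 CTCF 2 has 2.
PLAGL1 CTCF 9, chr6:144064088-144064101, minus strand: cactgtccCCGCGCGGAGGCAGgtcgccgc
MEG3 CTCF 2, chr14:100851316-100851329, plus strand: ggttttgcCCACCAGGGGGCAGcagagggt
PLAGL1 CTCF 7, chr6:144013595-144013608, minus strand: cactagagCCACTAGATGGCGCctgcggcc
Between H19 and IGF2, CTCF 2, chr11:2074453-2074466, minus strand: agacagttTCAGTAGGGGGCGCtgtctttc
GNAS CTCF 7, chr20:58870457-58870470, plus strand: gctcctccCCACCAGAGGTCAGcagagagc
KCNQ1OT1 CTCF 2, chr11:2694084-2694097, plus strand: caactaaaCCTCTGGGTGGCAGcccatagg

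H3K27ac was found at 5 of the 10 loci: H19, IGF2, KCNQ1OT1, PLAGL1 and GNAS. MEG3, DLK1, PEG3, MEST and SNRPN had no H3K27ac peak in any of the 6 libraries. The share without a peak was 29.6% of all gene loci and 23.1% of those within the length range of the 10 loci (29.4 to 175 kb). MEG3 is a maternally expressed long noncoding RNA, DLK1 a Notch pathway ligand, PEG3 a zinc finger protein, MEST a member of the hydrolase fold family and SNRPN a component of the splicing machinery. CTCF was found at 9 of the 10 loci, all but DLK1. No CTCF peak was present at 20.7% of all gene loci and at 14.4% of those in that length range. At the 10 loci together, the CTRL libraries held 6, 15 and 13 H3K27ac peaks in replicates 1, 2 and 3, and the VPA libraries held 12, 14 and 12. The difference of the means, 1.33 peaks, was smaller than the larger SD, 4.73 (n = 3). For CTCF there were 28, 37 and 37 peaks in the CTRL libraries and 24, 34 and 31 in the VPA libraries, a difference of -4.33 with a larger SD of 5.20 (n = 3). The groups overlapped for both antibodies. Without both replicate 1 libraries the CTCF difference was -4.50 with a larger SD of 2.12 (n = 2), and the groups no longer overlapped. The full CTCF lists also separated then, with 58782 and 56576 peaks from untreated cells against 53458 and 55325 from treated cells. With all lists cut to the shortest, the CTCF difference at the loci was -0.67 with a larger SD of 3.79 (n = 3). The CTCF difference was -7.33 without CTRL replicate 1 and -1.50 without VPA replicate 1. The H3K27ac difference was -1 without both and -1.33 without CTRL replicate 1, against its sign in all libraries.

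**Figure D1:**
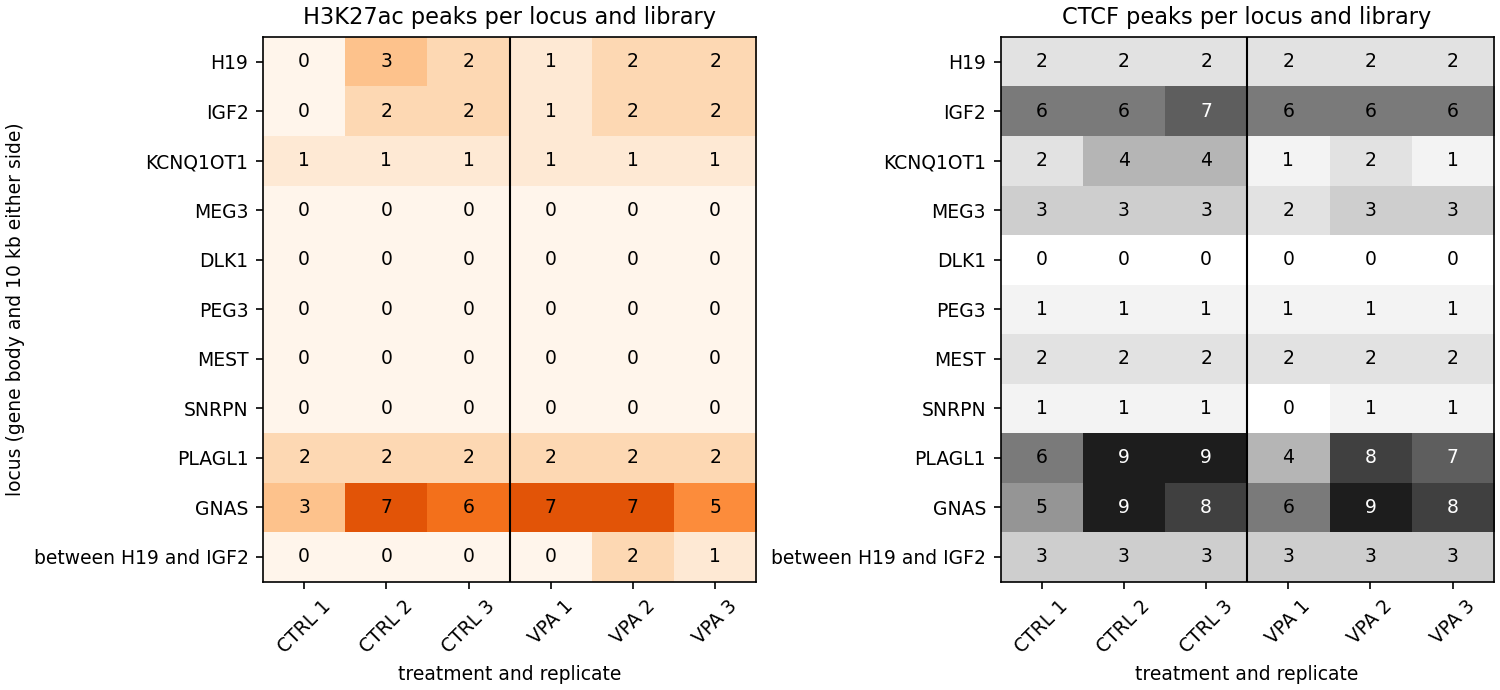
Number of H3K27ac (left) and CTCF (right) peaks in each library (columns) at each locus (rows), with the count written in each cell and darker cells for higher counts. H3K27ac counts were 0 in all 6 libraries at MEG3, DLK1, PEG3, MEST and SNRPN, while CTCF counts were 0 in all 6 at DLK1 alone.

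The length covered by peaks was compared at each locus that had any. It did not separate the groups at any of 5 loci for H3K27ac or any of 9 loci for CTCF. Over all gene loci with a peak, H3K27ac covered more in every VPA than in every CTRL library at 29.1% and less at 0.288%, and CTCF covered more at 1.50% and less at 1.81%. GNAS, which encodes the stimulatory G protein alpha subunit and several imprinted products, had 7343, 11171 and 11147 bp of H3K27ac in CTRL and 10352, 17509 and 14134 bp in VPA (exact permutation test, two-sided, p = 0.3, where 3 against 3 libraries allow 0.1 at least). IGF2, a fetal growth factor expressed from the paternal copy, had 0, 1759 and 934 bp in CTRL and 756, 3872 and 3430 bp in VPA (exact p = 0.3). Within each replicate number the VPA library covered more H3K27ac at all 5 loci, as at 67.6% of all gene loci with a peak (it covered less in all 3 at 1.52%), and the groups overlapped at each. At H19 the lengths were 0, 1407 and 1006 bp in CTRL and 315, 1707 and 1199 bp in VPA.

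No H3K27ac region at the 10 loci was found only in VPA or only in CTRL, meaning in 3 of 3 libraries of one treatment and 0 of 3 of the other. Over all regions these shares were 4.12% and 0.139%. The nearest cases were GNAS H3K27ac 3 and 6, in 2 VPA and 0 CTRL libraries, and H19 H3K27ac 3 and GNAS H3K27ac 4, in 3 VPA and 1 CTRL. GNAS H3K27ac 4 (chr20:58899476-58900723), in an intron of GNAS, had pileups of 18, 23 and 20 in VPA and 13 in CTRL replicate 3 alone. With a -log10 q-value of at least 3 required, the peak of CTRL replicate 3 (2.11) dropped out and the region was only in VPA. The share of all regions only in VPA at that threshold was not counted. Of the 17 regions, 6 (35.3%) had a peak in all 6 libraries, as had 33.2% of all H3K27ac regions. Those were KCNQ1OT1 H3K27ac 1, PLAGL1 H3K27ac 1 and 2, and GNAS H3K27ac 1, 2 and 7.

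Fold enrichment at the 18407 H3K27ac regions found in all 6 libraries was compared with limma. With Benjamini-Hochberg adjustment at 0.05, 0 regions passed (0%), and 301 had an unadjusted p under 0.05. H3K27ac libraries with the same replicate number deviated together (r = 0.87, 0.59 and 0.59), and so did CTRL 2 with VPA 3 (0.61) and CTRL 3 with VPA 2 (0.55). These values set replicate 1 apart from replicates 2 and 3, and do not show that 2 belongs with 2 and 3 with 3. With the replicate number as a block, 871 regions (4.73%) were higher in VPA and 2169 (11.8%) lower. With median-centred values and the block the counts were 1187 and 1578. Pileup divided by background coverage, fitted without a block, gave 774 higher (4.20%) and 2406 lower (13.1%). Without both replicate 1 libraries, 419 were higher and 1417 lower. The same 3 member regions passed in each of these 4 fits: KCNQ1OT1 H3K27ac 1 and GNAS H3K27ac 2 lower, and GNAS H3K27ac 7 higher. These fits share libraries and are not independent. Without the block, median-centred fold gave 0 of 18407 regions. Requiring a -log10 q-value of at least 3 in all 6 libraries gave 0 of 17864, also without the block.

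GNAS H3K27ac 2 (chr20:58887891-58898248) had the highest mean percentile of the -log10 q-value within the lists of the 17 regions (97.8), and its summit lay 789 bp downstream of the canonical GNAS start, the promoter of the stimulatory alpha subunit. Its pileup was 1147, 794 and 781 fragments in CTRL replicates 1, 2 and 3, and 572, 449 and 416 in VPA. Every VPA library lay below every CTRL library, which was so for 27.5% of all regions once pileup was scaled by background coverage (10.3% were above). Its fold enrichment was 24.1, 107 and 66.5 in CTRL and 12.7, 37.1 and 51.2 in VPA, a log2 change of -0.94 ± 0.74 (SE) with an adjusted p of 1.00 (limma). With 1 library left out this change ran from -1.54 (without CTRL replicate 1) to -0.35 (without VPA replicate 1), and it was -0.47 without CTRL replicate 2. With the replicate block, it was lower by the same amount with an SE of 0.22 (adjusted p = 0.0106). The length it covered was 4950, 7394 and 7649 bp in CTRL and 4848, 9907 and 9404 bp in VPA. So the summit was lower within all 3 replicate numbers, and the covered length was greater in replicates 2 and 3 but not in replicate 1.

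GNAS H3K27ac 7 (chr20:58906082-58909141) lay over the 3′ part of GNAS, with its summit in an exon 15934 bp downstream of the canonical start. Its pileup was 30, 41 and 52 in CTRL and 50, 87 and 103 in VPA. The fold enrichment was 6.70, 5.63 and 5.71 in CTRL and 10.9, 14.5 and 19 in VPA. All 3 VPA folds lay above all 3 CTRL folds, as at 4.53% of all regions (they were below at 1.56%), while the pileups overlapped. Its log2 change in fold was 1.27 ± 0.60 (SE, adjusted p = 1.00, limma). The same change had an SE of 0.24 and an adjusted p of 0.00360 with the replicate block. Within 1 gene, the log2 changes of the promoter region and the 3′ region thus had opposite signs. Both were among the 3 regions that passed with the block. Their signs also differed within all 3 replicate numbers, but the labels give no pairing by number. The share of all regions lower or higher within all 3 numbers was not counted. The difference between the promoter region and the 3′ region was not tested.

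KCNQ1OT1 is a paternally expressed antisense RNA that silences neighbouring genes, and its start lies within an intron of KCNQ1 in an imprinting control region. KCNQ1OT1 H3K27ac 1 (chr11:2698004-2701339) had its summit 498 bp upstream of that start. Its pileup was 521, 465 and 463 in CTRL and 373, 268 and 297 in VPA. Every VPA library was below every CTRL library, as at 27.5% of all regions on scaled pileup (10.3% were above). The median pileup of all regions found in all 6 libraries was 260, 213 and 196 in CTRL replicates 1, 2 and 3. In VPA it was 231, 180 and 175. The fold enrichment was 13.0, 44.6 and 44.1 in CTRL and 9.55, 23.3 and 25.9 in VPA, a log2 change of -0.72 ± 0.75 (SE, adjusted p = 1.00, limma). With 1 library left out it ran from -1.31 (without CTRL replicate 1) to -0.26 (without VPA replicate 1), and it was -0.42 without CTRL replicate 2 and -0.43 without CTRL replicate 3. With the replicate block the SE was 0.20 and the adjusted p 0.0211.

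PLAGL1 encodes a zinc finger transcription factor of growth control, and the noncoding RNA HYMAI starts within its imprinted promoter. PLAGL1 H3K27ac 1 (chr6:144006118-144009001), 203 bp downstream of the canonical PLAGL1 start and in an exon of HYMAI, had pileups of 749, 526 and 514 in CTRL and 545, 397 and 364 in VPA. VPA was lower within all 3 replicate numbers, but the groups overlapped, and the log2 change in fold was -0.40 ± 0.75 (SE, adjusted p = 1.00, limma) and did not pass with the block (adjusted p = 0.163). PLAGL1 H3K27ac 2 (chr6:144063014-144065146), 589 bp downstream of the start of another PLAGL1 transcript, had pileups of 278, 207 and 208 in CTRL and 285, 171 and 194 in VPA. Its log2 change was 0.09 ± 0.64 (SE), and -0.15 ± 0.23 on pileup, so its sign was not stable. GNAS H3K27ac 1 (chr20:58849578-58851267), at the start of the antisense RNA GNAS-AS1, had pileups of 201, 187 and 154 in CTRL and 204, 171 and 173 in VPA. The log2 change in fold was 0.03 ± 0.69 (SE), and -0.02 ± 0.21 on pileup.

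**Figure D2:**
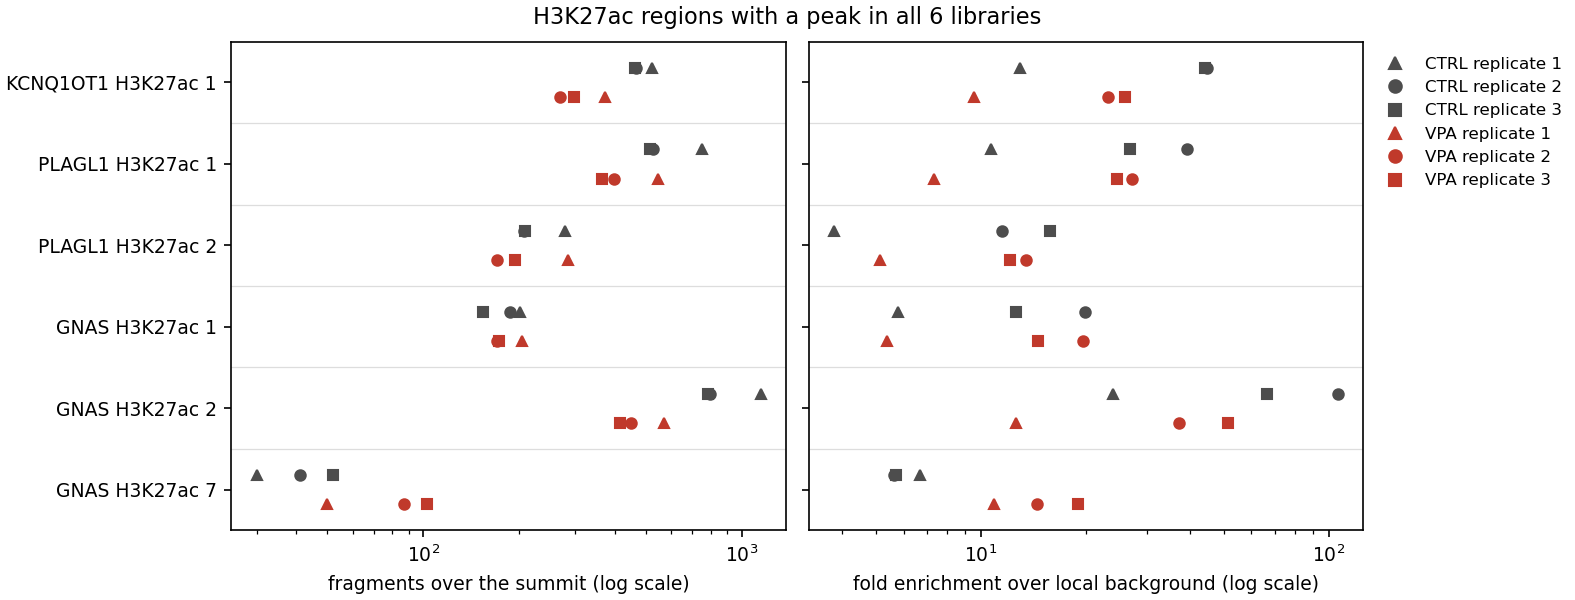
Summit pileup (left) and fold enrichment (right), both on log axes, of the 6 H3K27ac regions at the 10 loci with a peak in all 6 libraries. Each point is a library, grey for CTRL and red for VPA, with a shape for each replicate. Pileups of KCNQ1OT1 H3K27ac 1 and GNAS H3K27ac 2 were lower in every VPA library, and the fold of GNAS H3K27ac 7 was higher in every VPA library. Of all regions, 27.5% were lower in this way on scaled pileup (10.3% higher), and 4.53% were higher on fold (1.56% lower).

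At IGF2 and H19 no H3K27ac region was found in all 6 libraries, so no fit was made. IGF2 H3K27ac 1 (chr11:2136995-2140404), in an intron and 251 bp upstream of an IGF2 start, had pileups of 39 and 30 in CTRL replicates 2 and 3, no peak in CTRL replicate 1, and 94, 65 and 67 in VPA. H19 is a maternally expressed long noncoding RNA. H19 H3K27ac 3 (chr11:1997492-1998624), 370 bp upstream of an H19 start, had a pileup of 22 in CTRL replicate 2 alone and of 53, 36 and 37 in VPA. The VPA pileups were above those of the CTRL libraries with a peak. Only 2 CTRL libraries at IGF2 and 1 at H19 had one, and the share of all regions with this pattern was not counted. The VPA replicate 1 pileups stood on local backgrounds of 50.9 at IGF2 and 19.3 at H19, where CTRL replicate 1 had no peak. The folds overlapped, running from 1.83 to 7.73 at IGF2 and from 2.66 to 5.24 at H19. A library without a peak gives no pileup, so these differences have no test. The remaining H19, IGF2 and GNAS regions outside the full set had pileups of 13 to 37.

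CTCF at the H19 control region was found in all 6 libraries. H19 CTCF 1 had pileups of 731, 378 and 338 in CTRL and 1026, 415 and 336 in VPA, and H19 CTCF 2 had 652, 362 and 316 in CTRL and 919, 357 and 323 in VPA. Replicate 1 was the highest of each group, and the treatments overlapped in both regions. The log2 changes in fold were -0.06 ± 0.56 and 0.20 ± 0.56 (SE, adjusted p = 1.00 for both, limma). Without both replicate 1 libraries they were -0.48 ± 0.36 and -0.26 ± 0.31 (adjusted p = 0.853 and 0.907).

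Between the H19 and IGF2 loci, 3 CTCF regions were found in all 6 libraries, 32.5, 69.9 and 84.6 kb from the 5′ end of the annotated H19 gene. The region at 32.5 kb (chr11:2036564-2037988) had pileups of 907, 563 and 437 in CTRL and 1349, 482 and 424 in VPA. The region at 69.9 kb (chr11:2073897-2074974), the only one of the 3 with the core consensus within 100 bp of its summit, had pileups of 30, 375 and 343 in CTRL and 35, 490 and 419 in VPA. Both replicate 1 libraries were far below the other 4 there, with a GC content of 47.1% for the region. The region at 84.6 kb (chr11:2088306-2089563) had pileups of 147, 72 and 63 in CTRL and 117, 156 and 94 in VPA. In order of distance the log2 changes in fold were 0.14 ± 0.52, 0.35 ± 1.09 and 0.68 ± 0.49 (SE, adjusted p = 1.00 for each, limma). Without both replicate 1 libraries, the region at 84.6 kb had a log2 change of 1.36 ± 0.31 (SE) with an adjusted p of 0.840. There the VPA libraries of replicates 2 and 3 also had an H3K27ac peak (pileups of 30 and 24) that VPA replicate 1 and the CTRL libraries lacked. The peak of VPA replicate 3 was weak, with a fold of 2.17 and a -log10 q-value of 2.25. The share of all H3K27ac regions with this pattern was not counted.

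**Figure D3:**
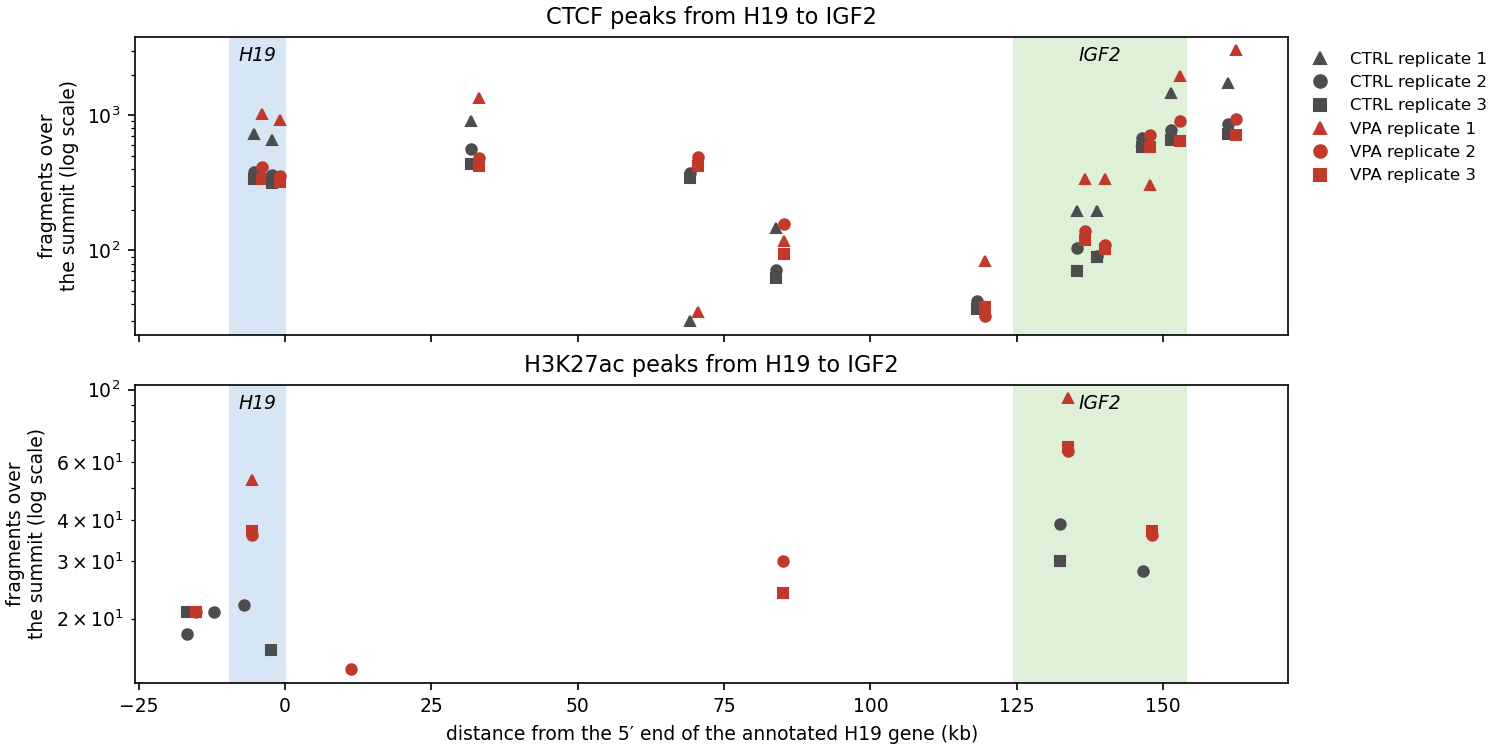
Summit pileup (log axes) of CTCF (top) and H3K27ac (bottom) peaks against distance from the 5′ end of the annotated H19 gene in kb, with the H19 and IGF2 gene bodies shaded. Each point is a library, grey for CTRL and red for VPA, and the treatments are drawn side by side at each region. CTCF regions at 32.5, 69.9 and 84.6 kb had a peak in all 6 libraries, and H3K27ac in the same stretch was called in VPA replicates 2 and 3 only.

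At IGF2 itself, 5 of 6 CTCF regions were found in all 6 libraries. The strongest, IGF2 CTCF 6 (chr11:2165792-2166830), lay in an exon of TH, the tyrosine hydroxylase gene next to IGF2, with pileups of 1739, 862 and 726 in CTRL and 3022, 941 and 712 in VPA. Its groups overlapped, and the log2 change in fold was 0.30 ± 0.48 (SE, adjusted p = 1.00, limma).

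The KCNQ1OT1 locus held the only member region found in 1 treatment alone. KCNQ1OT1 CTCF 2 (chr11:2693830-2694445), in the gene's exon 5941 bp downstream of its start, had pileups of 53, 44 and 36 in CTRL and no peak in VPA. Of all CTCF regions, 0.326% were only in CTRL and 0.186% only in VPA. Its mean percentile of the -log10 q-value within the CTRL lists was 25.4, and it was no longer counted when each list was limited to the length of the shortest one. KCNQ1OT1 CTCF 3, 1408 bp from the start, had pileups of 50 and 67 in CTRL replicates 2 and 3 and no peak in the other 4 libraries. KCNQ1OT1 CTCF 4, 236 bp from the start, had 72 and 46 in CTRL replicates 2 and 3 and 136 and 39 in VPA replicates 1 and 2. The strongest of the locus, KCNQ1OT1 CTCF 1, had 108, 109 and 90 in CTRL and 97 and 89 in VPA replicates 2 and 3. Over the locus there were 2, 4 and 4 CTCF peaks in CTRL and 1, 2 and 1 in VPA. The groups met at 2 peaks (exact permutation test, two-sided, p = 0.2). Without both replicate 1 libraries, 3 member regions were only in CTRL: KCNQ1OT1 CTCF 2 and 3 and PLAGL1 CTCF 4. The share over all CTCF regions was not counted in that setting, so this number has no background beside it.

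Of the 37 CTCF regions, 19 (51.4%) had a peak in all 6 libraries, as had 39.7% of all CTCF regions. None passed the limma test on fold enrichment, where 0 of 27794 regions passed (0%) and 254 had an unadjusted p under 0.05. The log2 changes ran from -1.11 to 0.91 with a median of 0.07, beside -0.02 for all regions, and 12 were above 0 and 7 below. The fold of 4 regions was higher in every VPA than in every CTRL library (21.1%, beside 3.87% of all regions), and the fold of 0 was lower (2.24% of all). On scaled pileup the groups overlapped at all 19 regions, where 0.270% of all regions were higher and 1.90% lower in every VPA library.

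Those 4 regions were named after their values were seen. PEG3 CTCF 1 (chr19:56837010-56838558), 226 bp from a PEG3 start, had folds of 14.6, 8.58 and 13.4 in CTRL and 20.5, 29.5 and 18.5 in VPA, and pileups of 242, 91 and 82 in CTRL and 384, 144 and 119 in VPA. Its pileups overlapped between the groups, and its log2 change in fold was 0.91 ± 0.52 (SE, adjusted p = 1.00, limma). MEST CTCF 1 (chr7:130485866-130486548), at the start of a MEST isoform and within the antisense RNA MESTIT1, had folds of 7.52, 9.53 and 10.1 in CTRL and 11.6, 19.4 and 12.5 in VPA. MEST CTCF 2 (chr7:130490713-130491228) had 3.80, 4.40 and 5.71 in CTRL and 6.71, 5.81 and 6.06 in VPA. IGF2 CTCF 3 (chr11:2143627-2144554) had 4.18, 7.46 and 8.36 in CTRL and 10.4, 12.9 and 11.3 in VPA. The log2 changes of these last 3 were 0.65 ± 0.44, 0.44 ± 0.29 and 0.85 ± 0.41 (SE, adjusted p = 1.00 for each, limma). All 4 regions were among those where replicate 1 had the higher pileups.

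MEG3 CTCF 2 (chr14:100850778-100851847), in an exon of MEG3, was among the strongest member regions, with pileups of 1504, 694 and 652 in CTRL and 2094, 910 and 687 in VPA. Its fold varied little, from 76.1 to 119, and the log2 change was 0.19 ± 0.25 (SE, adjusted p = 1.00, limma). SNRPN CTCF 1 (chr15:24846979-24847657), the only peak of that locus, lay in an intron of SNRPN. It had pileups of 22, 97 and 90 in CTRL, no peak in VPA replicate 1, and 72 and 105 in VPA replicates 2 and 3. Neither region separated the treatments.

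At PLAGL1 and GNAS, 3 regions varied widely between libraries. PLAGL1 CTCF 2 (chr6:143939481-143940588) had pileups of 32, 522 and 468 in CTRL and 60, 81 and 436 in VPA, with a GC content of 36.3%. VPA replicate 2 was low there together with both replicate 1 libraries. PLAGL1 CTCF 7 (chr6:144013199-144014255, GC content 42.4%) had 160, 977 and 863 in CTRL and 120, 942 and 846 in VPA. GNAS CTCF 7 (chr20:58869713-58870919, GC content 50.1%) had 885, 682 and 606 in CTRL and 92, 758 and 586 in VPA. Their log2 changes in fold were -0.71 ± 1.15, -0.30 ± 0.70 and -1.11 ± 0.64 (SE, adjusted p = 1.00 for each, limma). Without both replicate 1 libraries the change at GNAS CTCF 7 was -0.03 ± 0.29 (SE), so the larger value rested on replicate 1. PLAGL1 CTCF 9 (chr6:144063698-144064521), with the H19 form at its summit, had 490, 246 and 183 in CTRL and 608, 187 and 131 in VPA, and overlapped an H3K27ac region found in all 6 libraries.

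**Figure D4:**
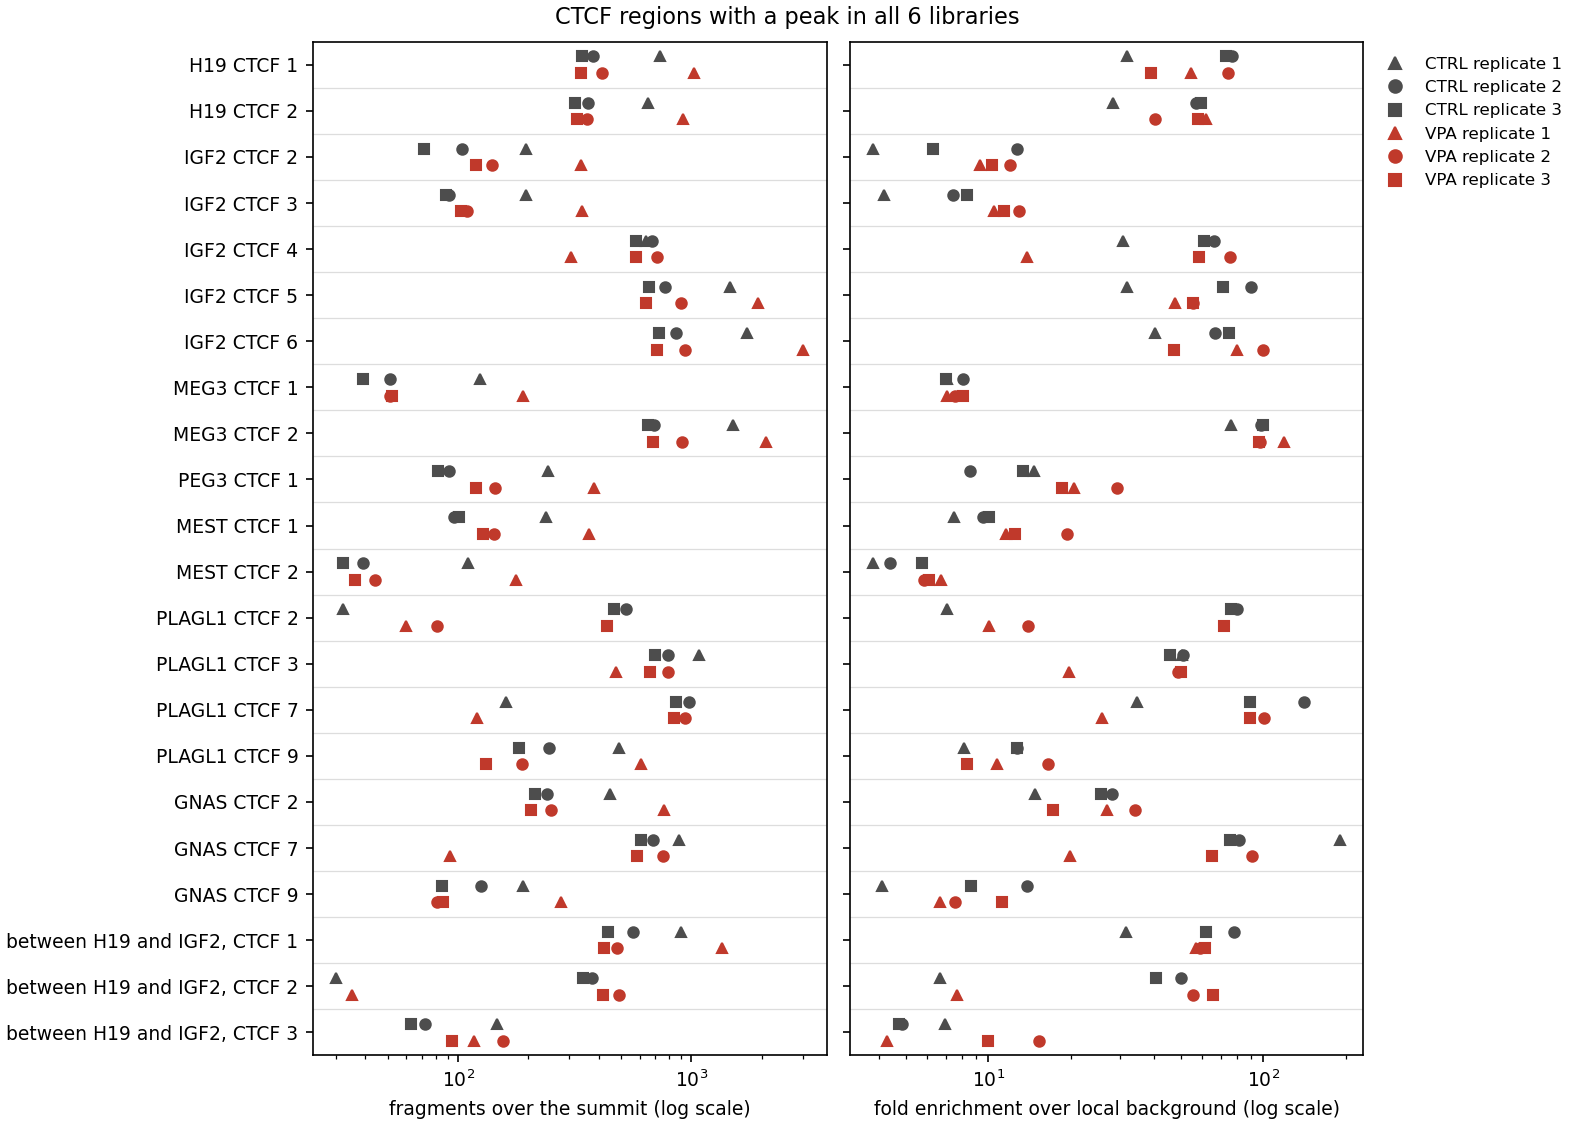
Summit pileup (left) and fold enrichment (right), both on log axes, of CTCF regions with a peak in all 6 libraries: 19 at the 10 loci and 3 between H19 and IGF2. Grey points are CTRL and red points VPA libraries, with triangles for replicate 1. Its pileup lay above replicates 2 and 3 at most regions and far below them at PLAGL1 CTCF 7 and the region at 69.9 kb between H19 and IGF2. The fold of replicate 1 lay below theirs within both treatments at some regions, such as IGF2 CTCF 5. It did not at others, such as GNAS CTCF 7 in CTRL and MEG3 CTCF 2 in VPA.

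**Figure D5:**
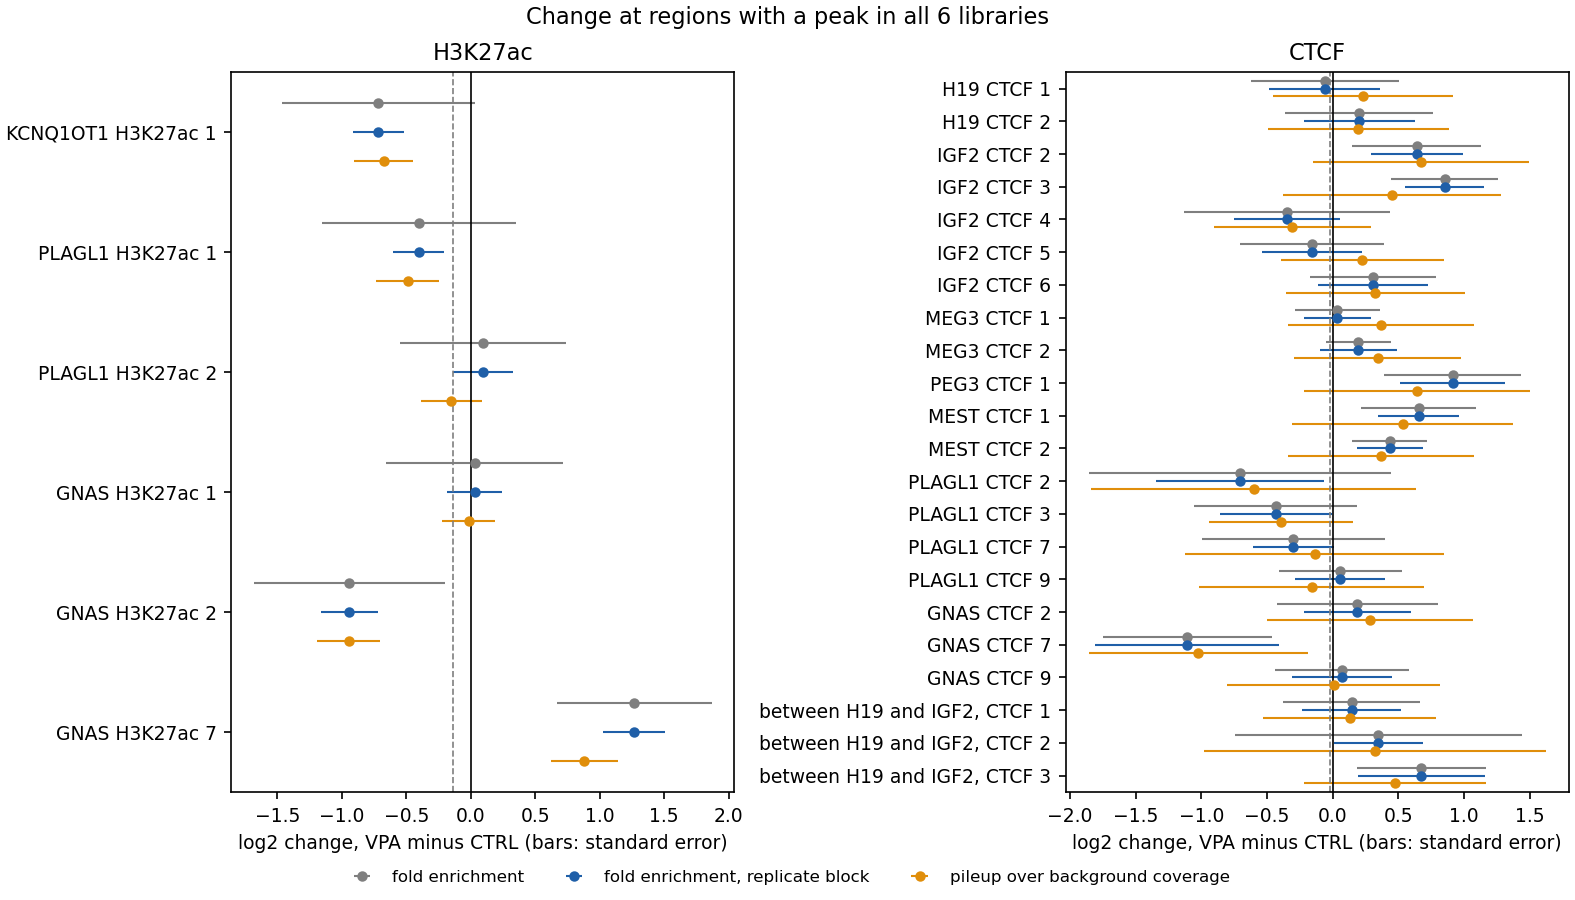
Log2 change, VPA minus CTRL, at H3K27ac (left) and CTCF (right) regions with a peak in all 6 libraries, from limma on fold enrichment without and with the replicate block and on pileup over background coverage. Bars are standard errors and the dashed line is the median of all regions tested on fold enrichment (-0.14 for H3K27ac, -0.02 for CTCF). With the block, 3 of the 6 H3K27ac regions passed and 0 of the CTCF regions did.

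Regions at the 10 loci were richer in GC than most. The median GC content was 55.8% for the 17 H3K27ac regions, beside 49.6% for all H3K27ac regions, and 56.6% for the 37 CTCF regions, beside 48.7% for all. The median ratio of observed to expected CpG was 0.460 and 0.383, beside 0.334 and 0.259.

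Among 43 other imprinted genes, 26 H3K27ac regions lay within 1 kb of a transcription start, of which 19 were in all 6 libraries, including PLAGL1 H3K27ac 1 (HYMAI) and GNAS H3K27ac 1 (GNAS-AS1). None was only in 1 treatment and 0 passed limma. With the replicate block 1 was lower and 0 higher, where 11.8% of all regions were lower and 4.73% higher. On pileup 4 were lower and 0 higher, where 13.1% of all regions were lower and 4.20% higher. Their median log2 change in fold was -0.31, beside -0.14 for all regions, which include many away from promoters. Other promoters were not compared. For 8 genes that keep imprints (ZFP57, ZNF445, TRIM28, DNMT1, UHRF1, CTCF, CTCFL and SMCHD1), 8 of 13 promoter H3K27ac regions were in all 6 libraries, and 0 passed without the block and 1 (lower) with it. On pileup 1 was higher and 2 were lower, and the median log2 change in fold at these promoters was -0.36. No CTCF region at the promoters of either list passed limma in any of these fits.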

How the data were processed

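Peak lists of 12 ChIP libraries were analysed, and 6 input libraries were not analysed here. Per the labels and the study's methods, the authors aligned paired reads to hg38 with Bowtie2 and called peaks in each library with MACS3 3.0.0a7 (q-value 0.05). Whether inputs were used in peak calling, and how duplicates were treated, was not given in the sources used here. The deposited lists give, for each peak, the fold enrichment (a ratio over local background), the -log10 p-value, the -log10 q-value, a score and the summit position. Scores were not used. Pileup was recovered from the authors' fold and p-value as whole numbers within 0.05 in at least 99.9975% of peaks. It counts fragments, so small pileups carry counting error.

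The members and lists were chosen with earlier results of these data known. Regions in all 6 libraries were tested on log2 fold enrichment with limma 3.58.1 in R 4.3.3 (trend, Benjamini-Hochberg over all regions, no pseudocount), which was tested on simulated data. For each member and antibody the region with the highest mean percentile of -log10 q-value was named, with every region only in 1 treatment, past the limma threshold, or with CTCF between IGF2 and H19. Other named regions were chosen after their values were seen. Same-numbered H3K27ac libraries correlated in their deviations from the group means (r = 0.87, 0.59 and 0.59), so blocked values are given. Pairs of different numbers, CTRL 2 with VPA 3 (r = 0.61) and CTRL 3 with VPA 2 (r = 0.55), were as high, so the data set replicate 1 apart and do not show which of replicates 2 and 3 belong together. The labels give no pairing. Alternatives were a -log10 q-value of at least 3, equal list lengths, summits inside, no flanks, the block, centring, pileup and leaving out libraries. Sequences were read from hg38 with Python 3.11.15. A check of markers of other cell types is not reported here.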

Additional observations from a re-analysis of the deposited data

How the results depend on the processing

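The read totals were unknown, the lists hold only called peaks, and a region without a peak gives no value, so weak regions were compared by presence alone. With 3 libraries per group an exact test of 1 locus could not pass 0.05. For H3K27ac, 0 regions passed limma as deposited, and 3040 passed with the replicate block, 2765 with centring and the block, 3180 on pileup and 1836 without replicate 1 of both treatments, an alternative chosen after the data were seen. Leaving out 1 library gave 0, as did centring without the block and a -log10 q-value of at least 3. The count for CTCF was 0 in each setting run, and the block, whose numbers these libraries only share (same-number r = 0.34, -0.045 and 0.48), moved the count at an unadjusted p under 0.05 from 254 to 598. The cause of these differences was not tested.

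H3K27ac regions only in 1 treatment numbered 0 as deposited and 1 (GNAS H3K27ac 4) with a -log10 q-value of at least 3, and 0 to 2 with 1 library left out: 1 without CTRL replicate 2 (H19 H3K27ac 3), 1 without CTRL replicate 3 (GNAS H3K27ac 4) and 2 without VPA replicate 3 (GNAS H3K27ac 3 and 6). For CTCF the count went from 1 to 0 with all lists cut to the shortest and ran from 1 to 3 with libraries left out, the 3 coming without CTRL replicate 1. Shares over all regions were not counted with libraries left out, with a -log10 q-value of at least 3 or with lists cut to the shortest. The difference in H3K27ac peak number turned from 1.33 to -1.67 with lists of equal length and to -1.33 without CTRL replicate 1, within the spread of the libraries. The difference in CTCF peak number went from -4.33 to -0.67 with lists of equal length.

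No log2 change that passed a test changed its sign in any setting run. Among those that passed none, the sign turned on pileup at PLAGL1 H3K27ac 2 (-0.15), GNAS H3K27ac 1 (-0.017), H19 CTCF 1 (0.23), IGF2 CTCF 5 (0.22) and PLAGL1 CTCF 9 (-0.16), and with median centring, with and without the block, at H19 CTCF 1 (0.056). Leaving out 1 library gave log2 changes on both sides of 0 at 15 regions. For H3K27ac these ran from -0.93 to 0.20 at PLAGL1 1, -0.52 to 0.53 at PLAGL1 2 and -0.46 to 0.58 at GNAS 1. For CTCF they ran from -0.47 to 0.17 at H19 1, -0.14 to 0.39 at H19 2, -0.82 to 0.41 at IGF2 4, -0.60 to 0.15 at IGF2 5, -0.013 to 0.10 at MEG3 1, -0.66 to 0.012 at PLAGL1 3, -0.87 to 0.33 at PLAGL1 7, -0.21 to 0.28 at PLAGL1 9, -0.099 to 0.46 at GNAS 2, -0.40 to 0.47 at GNAS 9, -0.24 to 0.42 at the region at 32.5 kb between H19 and IGF2 and -0.57 to 1.34 at the region at 69.9 kb. Without replicate 1 of both treatments the sign turned at 10 regions, with log2 changes of -0.078 at PLAGL1 2 for H3K27ac and, for CTCF, of -0.26 at H19 2, 0.061 at IGF2 4, -0.042 at IGF2 6, -0.028 at MEG3 2, 0.034 at PLAGL1 3, -0.12 at PLAGL1 9, -0.15 at GNAS 2, -0.25 at GNAS 9 and -0.21 at the region at 32.5 kb between H19 and IGF2. Of the remaining values, 279 kept their sign and side of the threshold and 12 newly passed it, all at KCNQ1OT1 H3K27ac 1, GNAS H3K27ac 2 and GNAS H3K27ac 7.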
